A study of Mus musculus with 2 samples.

Results

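In the 2 stretches of the mouse genome described here, peaks of the transcription factor NF-E2 p45 stand close together. The stretches are named after the signalling genes Inpp5d, Pld2 and Mink1, whose own positions were not checked against the peaks. The members are the peaks that overlap chr1:89490000-89630000, the Inpp5d window, and chr11:70330000-70440000, the window of Pld2 and Mink1, both on build mm9. They number 6 of the 1651 peaks of the list, 3 in each window. The windows were chosen from the peak positions themselves, as runs of neighbouring peaks, so the number of peaks in them and their closeness are descriptions and carry no test.

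The series measured p45 by chromatin immunoprecipitation and sequencing in primary megakaryocytes of wild-type C57BL6 mice. Cells from whole livers of fetuses at embryonic day 13.5 were cultured for 3 days with recombinant human thrombopoietin at 50 ng/ml, and the study holds 1 library made with the anti-p45 antibody and 1 input library of the same cells with no antibody. The sources used here do not give the number of fetuses pooled or the purity of the cultured cells. A peak list holds no expression values, so the identity of the cells was not checked against marker genes. With 1 p45 library there is no spread between replicates to set beside any value, and because the list gives no tag counts the depth under the peaks is unknown.

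NF-E2 is made of p45, found mainly in blood cells, and a small Maf protein, and is needed for megakaryocytes to mature and shed platelets. Inpp5d encodes SHIP1, a phosphatase of blood cells that removes a phosphate from the membrane lipid made by PI 3-kinase and so acts against that pathway. Pld2 encodes a phospholipase D, which cleaves phosphatidylcholine into phosphatidic acid and choline, and the phosphatidic acid serves as a lipid messenger. Mink1 encodes misshapen-like kinase, a serine/threonine kinase of the Ste20 family that acts upstream of the JNK pathway. In the RefSeq gene table of GRCm38.p6, Pld2 and Mink1 are neighbouring protein-coding genes on chromosome 11. The coding gene listed before Pld2 is Gm40193 and the one after Mink1 is Chrne. That table is on another build than the peaks, so each peak is only named here after its window. Which genes lie in the windows was not analysed, so a peak may be nearer to a gene not named. Its distance to a start site, and whether it lies in an exon, an intron or between genes, was not analysed here, and in the window of Pld2 and Mink1 the peaks were not divided between the genes.

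The sequence under the peaks was not analysed here. The RefSeq promoter windows of the members, from 250 bases before an annotated start to 50 after it on GRCm38.p6, were searched on both strands for the NF-E2 motif GCTGAGTCA and for its core TGAGTCA, which the longer motif contains. None of the 4 windows (1 of Inpp5d, 2 of Pld2 and 1 of Mink1) held either. Over all 32851 windows of the table, 0.454% held the longer motif and 5.20% the core. No match says only that these letters are absent from these windows. The letters GATAA, the core recognised by the GATA factors that work beside NF-E2 in megakaryocytes, were searched after that result was seen. They were found in 1 of the 4 windows, that of Inpp5d, and in 25.4% of all windows of the table, so the members' share is that of the background and nothing is read from it. The 250 bases before the annotated start of Inpp5d, on the plus strand, are shown because they are the region searched that lies wholly before the first base of its gene, with GATAA in capitals only to mark where these common letters lie, beginning 155 bases before the start. The table lists earlier starts for Pld2 and Mink1, so theirs are not shown.

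Inpp5d, upstream of its start: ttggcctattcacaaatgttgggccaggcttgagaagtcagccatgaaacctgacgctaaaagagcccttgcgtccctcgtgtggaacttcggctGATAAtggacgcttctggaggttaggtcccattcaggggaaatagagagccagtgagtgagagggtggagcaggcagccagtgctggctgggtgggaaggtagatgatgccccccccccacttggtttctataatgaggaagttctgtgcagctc

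In the Inpp5d window, 1 peak with a score above the upper quartile of the list stood beside 2 longer ones with lower scores. The score of a peak is the authors' own value, in a list whose peak names point to the MACS caller. The sources used here do not state its scale or whether the control behind it was the input library, so scores are given as values and as ranks counted from the highest. The first peak, chr1:89505197-89506040, had a score of 74.86 over 844 bp and held rank 859 in the list. The second, chr1:89523001-89523797, scored 55.45 over 797 bp, at rank 1435. The third, chr1:89533882-89534518, had the highest score of all 6 members, 123.53 over 637 bp, at rank 300 and above 81.8% of the list. The median score of the whole list was 76.44, with quartiles of 61.97 and 106. The first peak of Inpp5d was therefore near the median, the second below the lower quartile and the third above the upper quartile. Among the 100 peaks of chromosome 1 the 3 held ranks 55, 93 and 18.

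The Inpp5d peaks crowded into the first part of their window. They spanned 29.3 kb and together covered 2278 bp. A gap of 16.96 kb separated the first peak from the second, and one of 10.08 kb the second from the third. The window held no peak in the 15.2 kb before the first one or in the 95.5 kb after the last. Outside the window, the nearest earlier peak ended 995 kb away, scored 81.02 and was 786 bp long. The nearest later one began 1.20 Mb away, scored 125.4 and was 554 bp long. The median gap between adjacent peaks on the same chromosome was 621 kb over 1626 gaps, so this trio was flanked by gaps longer than the median on both sides. They were not extreme, as 62.7% of all adjacent gaps were shorter than the earlier one and 66.9% shorter than the later one.

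In the window of Pld2 and Mink1, the peak with the highest score came first and the one with the lowest in the middle. The first peak, chr11:70338729-70339213, had a score of 110.75 over 485 bp, at rank 375, above 77.3% of the list. The second, chr11:70356849-70357949, scored 51.26 over 1101 bp and shared ranks 1604 and 1605 with another peak. The lowest score of the list was 50.04, so this peak lay near the lower end of the list. The third, chr11:70393117-70394380, scored 67.31 over 1264 bp, at rank 1032. Only the first of the Pld2 and Mink1 peaks was above the median score, and the second was below the lower quartile. Among the 157 peaks of chromosome 11 they held ranks 40, 153 and 101.

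The Pld2 and Mink1 peaks were spread more widely than those of Inpp5d. They spanned 55.7 kb and covered 2850 bp. The gaps were 17.6 kb between the first and second peaks and 35.2 kb between the second and the third. The last 45.6 kb of the window held no peak. The nearest earlier peak lay 209 kb before the first one, with a score of 59.86 over 600 bp. The nearest later peak lay 243 kb beyond the last, with a score of 156.53 over 980 bp. This trio therefore stood closer to other peaks than the median gap of the list, while the Inpp5d trio stood farther away. Of all adjacent gaps, 25.3% were shorter than the earlier of these 2 and 28.0% shorter than the later. Chromosome 1 held 100 peaks and chromosome 11 held 157, and the gaps were not compared within chromosomes.

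**Figure D1:**
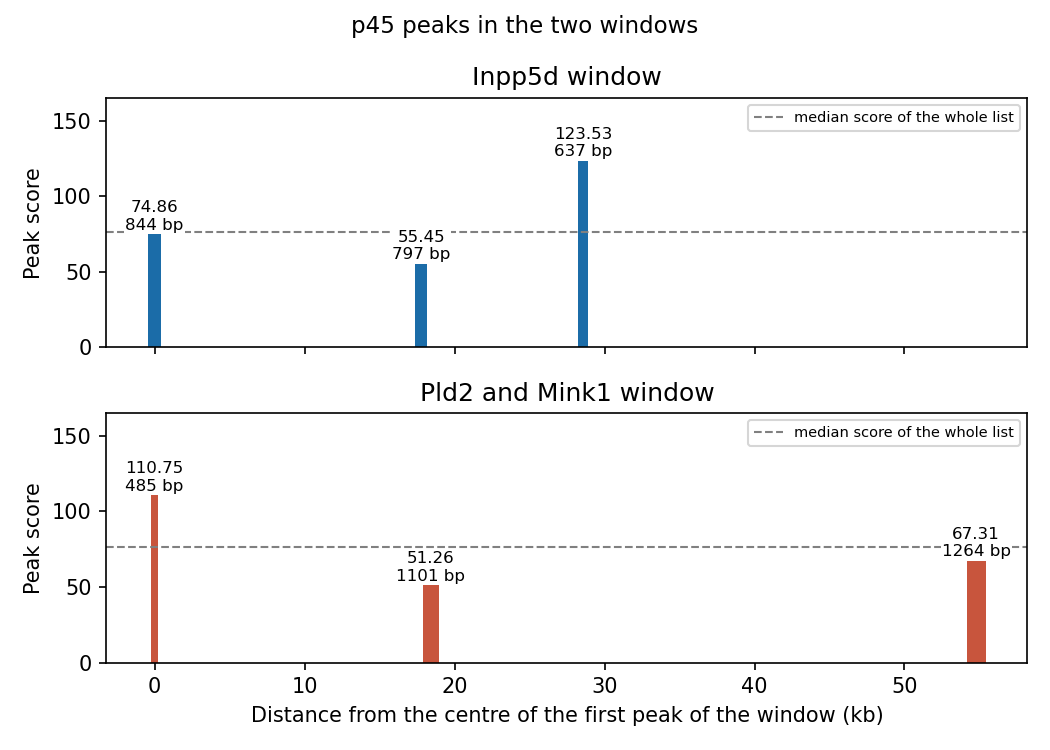
Score of each p45 peak (vertical axis, the authors' score) against its distance in kb from the centre of the first peak of its window, with 1 panel for Inpp5d and 1 for Pld2 and Mink1. Each bar is as wide as its peak, labelled with score and length, and the dashed line is the list median of 76.44, which the third peak of Inpp5d (123.53) and the first peak of Pld2 and Mink1 (110.75) exceed.

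Both windows held the same mix of 1 peak above the list's median score and 2 below it. A score of at least 100 was reached by 2 of the 6 members, 1 in each window, against 27.9% of the list, a share near the background. The median score was 74.86 for Inpp5d and 67.31 for Pld2 and Mink1, both under the list median of 76.44. Every member had another peak within 50 kb, against 14.7% of the list, but closeness is what the windows were chosen by and nothing is read from it. No test of the scores was made, since the members were chosen with results of these data known and peaks of 1 library are not replicates.

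The shortest peak of each window had the highest score, the longest came second and the one of middle length had the lowest. For Inpp5d the order was 637 bp with 123.53, 844 bp with 74.86 and 797 bp with 55.45. For Pld2 and Mink1 it was 485 bp with 110.75, 1264 bp with 67.31 and 1101 bp with 51.26. Lengths above the list median of 648 bp were held by 4 of the 6 members, 2 in each window, against 50.0% of the list. The third peak of Pld2 and Mink1 was at rank 29.5 of the list by length and the second at rank 71, while the first, at 1490.5, was among the shorter ones. The list holds many peaks of nearly equal length, and 26.3% of it measured from 540 to under 590 bp. None of the 6 members did. That length class was defined in an earlier look at the lengths of this list, and nothing is read from its absence among only 6 peaks.

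**Figure D2:**
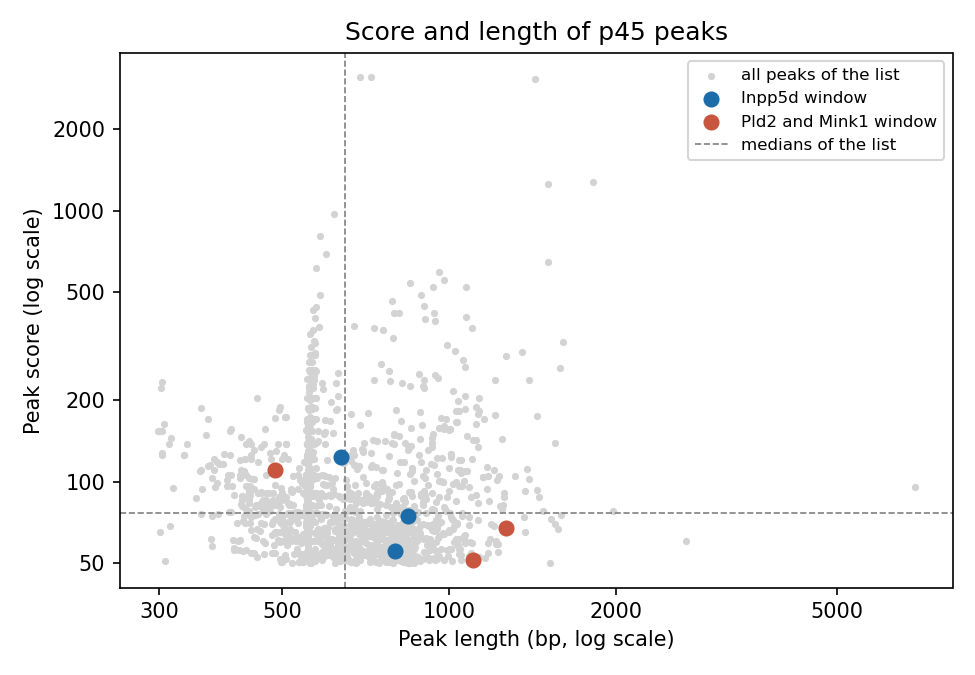
Score against length in bp for all 1651 p45 peaks (grey) and the 3 peaks each of the Inpp5d window (blue) and the Pld2 and Mink1 window (red), both axes on log scales, with dashed lines at the medians of 76.44 and 648 bp. The member with the highest score in each window lies above the median score and left of the median length, and the other 4 lie below the median score and right of the median length.

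Among the runs of p45 peaks in the list, both trios were in the middle by their highest score. With gaps of at most 50 kb, the list holds 14 runs of at least 3 peaks, 10 of them of exactly 3, with 2 runs on chromosome 1 and 4 on chromosome 11. By highest score, Inpp5d was at place 6 of the 14 and Pld2 and Mink1 at place 8. The highest scores of the other 12 runs went from 63.66 to 1279.27, with a median of 116. By median score the places were 10 and 11. Of the 42 peaks in the other runs, 13 reached a score of 100. The spans of the 14 runs went from 4.97 to 84.0 kb with a median of 28.6 kb, and counted from the shortest the Inpp5d run was at place 8 and the Pld2 and Mink1 run at place 11. By the distance to the nearest peak outside the run, Inpp5d was the second most isolated of the 14, at 995 kb against a median of 204 kb, and Pld2 and Mink1, at 209 kb, was at place 7. The shortest peak had the highest score in 6 of the other 12 runs, so this was not confined to Inpp5d and Pld2 and Mink1. With gaps of at most 20 kb the list held 8 runs, and the peaks of Pld2 and Mink1 no longer formed one, while those of Inpp5d still did.

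**Figure D3:**
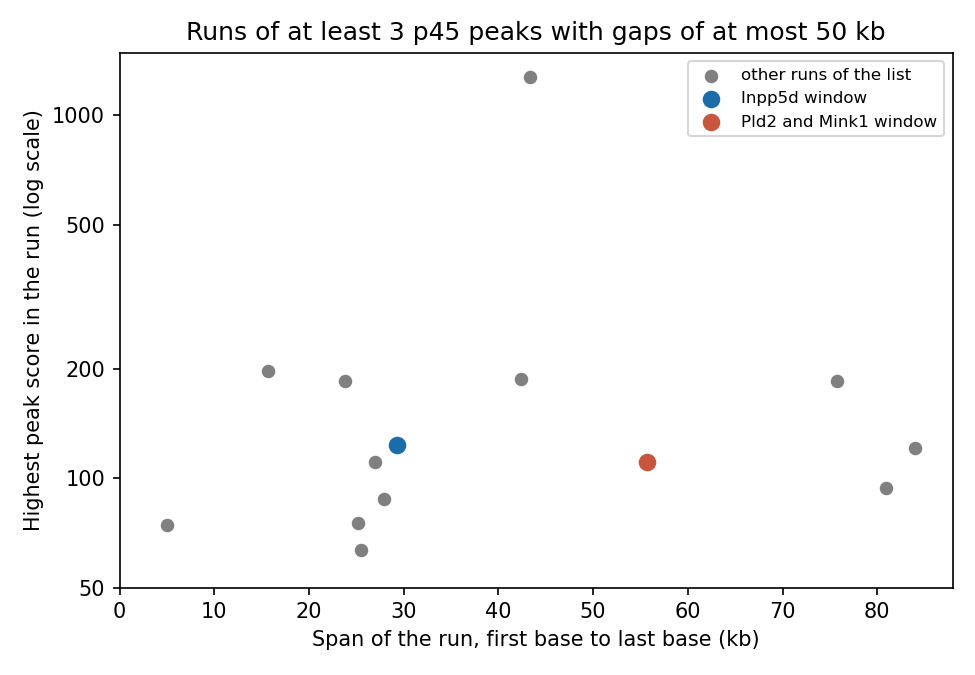
Highest peak score (vertical axis, log scale) against span in kb for the 14 runs of at least 3 p45 peaks, with Inpp5d in blue (123.53 over 29.3 kb), Pld2 and Mink1 in red (110.75 over 55.7 kb) and the other 12 in grey. Both trios lie among the other runs, far under the run with the score of 1279.27.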

How the data were processed

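The deposited list of p45 peaks gives for each peak its position, a name and a score, in 5 columns without a header. The peak names begin with MACS, so the authors' peak caller was MACS, and per the submitters' processing notes the build is mm9. The name of the deposited list says that a control was used, and whether this was the input library is not stated. The sources used here do not give the aligner, the MACS version and settings, the handling of duplicates or the scale of the score. Scores served only as values and ranks inside this list. Starts were read as zero-based and are printed 1-based. A gap runs from the end of a peak to the start of the next, and tied scores share their mean rank. No test was made. The members, the gap of 50 kb and the length class were chosen with earlier results of these data known. All peaks overlapping the windows are named, with the nearest one on each side. The windows, ranks and runs were tested on simulated data. Gene positions, and counts over other genes of the pathways, need an annotation of mm9 and were not analysed here. Alternatives were a score minimum, other windows and gaps, and other ways of ranking. Python 3.11.15, NumPy 2.4.6, pandas 2.3.3 and matplotlib 3.10.9 were used.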

Additional observations from a re-analysis of the deposited data

How the results depend on the processing

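The count of 3 peaks in each window stayed at 3 for peaks wholly inside it, for windows widened by 50 kb and with peaks at most 10 kb apart counted once. These settings could not change it, since no member crossed a window edge and the nearest outside peak lay 209 kb away. The smallest gap between members was 10.08 kb, just over the limit of 10 kb. With peaks at most 20 kb apart counted once, an alternative chosen after seeing the data, the count was 1 for Inpp5d and 2 for Pld2 and Mink1. It was 1 in each at or above the median score, and also 1 with a score minimum of 100, because 2 peaks of each are removed. At or above the median score, the median score became 123.53 and the median length 637 bp for Inpp5d, and 110.75 and 485 bp for Pld2 and Mink1, each then being a single peak with no gap to measure. Median gaps of 13.52 and 26.40 kb became 14.29 and 27.39 kb from centre to centre, since that adds part of the peaks' lengths. Tied scores put the second peak of Inpp5d between ranks 1432 and 1438 and the second of Pld2 and Mink1 between 1604 and 1605. Within chromosomes the ranks were 55, 93 and 18 for Inpp5d and 40, 153 and 101 for Pld2 and Mink1. By length they were 339.5, 461 and 854.5, and 1490.5, 71 and 29.5. The 14 runs became 8 with gaps of at most 20 kb and 37 with gaps of at most 100 kb, also chosen after seeing the data. Positions along genes were not run. No paired analysis was possible because there is 1 p45 library. Without tag counts or a replicate, a missing peak cannot be told from one under the caller's limit, and the members with the lowest scores lie near the lowest of the list.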
